A study of Rattus norvegicus with 20 samples.

Results

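Promoter occupancy of NF-kB p65 in the liver of carbohydrate-fed rats was compared between 6h and 0h of a partial hepatectomy, over 7 of the 20 arrays of the series. The 6h group held 4 arrays (replicates 1 to 4) and the 0h group held 3 (replicates 1 to 3), chosen by the diet and time in their titles. All animals were wild-type male Sprague Dawley rats of 8 to 10 weeks. They drank for 5 weeks a liquid diet in which carbohydrate stood in for the ethanol (36% of calories) that pair-fed littermates received, and underwent a 70% hepatectomy. The 6h arrays came from the remnant (right median, right lateral and caudate lobes in the labels), and the 0h arrays came from the median and left lateral lobes taken out at the operation. The other arrays hold the same diet at 1h (3 arrays) and ethanol-fed rats at 0h, 1h and 6h (3, 3 and 4 arrays), and are used below only where a value of theirs bears on this contrast. The series asks how chronic ethanol alters promoter binding of NF-kB in regenerating liver, and this contrast gives the course of binding in its control diet.

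NF-kB is a family of transcription factors held inactive in the cytoplasm by inhibitor proteins of the IkB family. Cytokines such as TNF and interleukin 1 activate the IkB kinase complex, the inhibitor is degraded, and dimers that contain p65 (encoded by Rela) enter the nucleus and bind kB sites of inflammatory, survival and feedback genes. In liver regeneration, p65 is activated soon after hepatectomy, in both hepatocytes and non-parenchymal cells, before hepatocytes enter the cell cycle. Whole liver was used here, so more cells with p65 at a promoter and more p65 per cell cannot be told apart.

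Promoter signal means here the log2 ratio between p65-precipitated and reference DNA, averaged in each of 14540 tiled promoters (13279 with a gene name) over its strongest 500 bp window, which was chosen on all 20 arrays together. The reference is input DNA in the channel labels, whereas the labelling protocol speaks of IgG-precipitated DNA, so its nature was not settled. The direction of the ratio is likely and not stated. From 99.9% to 100% of the authors' own peaks on each of the 7 arrays lay below 0 in the deposited table, with a correlation between value and peak score across peaks of -0.73 to -0.62, and every value was therefore multiplied by -1 and centred on its array's median. Time cannot be told apart from array run or from liver lobe in this contrast: identifiers of the arrays place all 3 arrays of 0h in a run with no 6h array, 6h replicates 2 to 4 in another run, and 6h replicate 1 in a run of its own. The 6h replicates 3 and 4 shared a slide, and 1 animal gave both 0h replicate 3 and 6h replicate 2. The submitters describe biological replicates, and within a group the identifiers name different animals. The limma p-values rest on the spread between arrays within groups, pooled over all 6 groups of the 20 arrays and not over these 7 alone. Some animals gave arrays to more than 1 group, so the 20 arrays are not all from different animals.

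The arrays were unequal in spread and in likeness. The probe values had an SD of 0.37 to 0.43 log2 on the 6h arrays and of 0.25 to 0.33 on the 0h arrays. Across promoters, pairs of 6h arrays correlated at r of 0.59 to 0.80 (6 pairs), pairs of 0h arrays at 0.22 to 0.63 (3 pairs), and pairs of a 6h with a 0h array at -0.28 to 0.47 (12 pairs). Replicate 3 of 0h stood apart from the other 0h arrays, and its values for the main results are given separately below. The small number of arrays limits precision. The standard error of a 6h minus 0h difference had a median of 0.13.

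At 6h, p65 signal was higher than at 0h at 2721 of 14540 promoters (18.7%) and lower at 290 (1.99%), by limma with a Benjamini-Hochberg adjusted p under 0.05. The promoters that rose had a median signal of 0.51 at 6h and 0.02 at 0h, and those that fell had -0.003 at 6h and 0.45 at 0h. The typical called promoter thus had signal in 1 group and a value near the array median in the other. In 2271 of the 2721 rises and 272 of the 290 falls the 4 arrays of 6h and the 3 of 0h did not overlap, a separation found at 26.4% of all promoters with 6h above and 5.78% with 6h below. The median difference over all promoters was 0.15, with a median level of 0.30 at 6h and of 0.14 at 0h, so a rise of that size was the typical value. Quantile normalization, which gives all arrays the same distribution, took that median to -0.002 and the calls to 1498 higher (10.3%) and 1422 lower (9.78%), and scaling the arrays to 1 spread gave 2100 (14.4%) and 800 (5.5%). The share of higher calls, 90.4% in the unscaled fit, therefore depended on the scaling. It also depended on the use of the strongest window. The mean of the whole tiled region, with no rescaling, gave 609 higher and 805 lower of 14540, with a median difference of -0.02. All 290 falls stayed called after quantile normalization, as did 1498 of the rises, and none of the rises turned negative.

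The array run was not separable within these groups. When run was added as a term, estimable only through ethanol 0h replicate 2 and the 1h arrays, 21 promoters were higher (0.144%) and 38 lower (0.261%), and only 10 and 1 of these were among the calls above. None of the promoters named below passed in that fit. The sign of the run-adjusted difference was positive at 2356 of the 2721 rises (86.6%, against 56.4% of all promoters) and negative at 251 of the 290 falls (86.6%, against 43.6%). These values share the 6h and 0h arrays with the calls. The counts also rested on single 0h arrays. Without 0h replicate 3, which stood apart, 3825 promoters were higher and 333 lower; without 0h replicate 2, 467 and 30; and without 0h replicate 1, 1004 and 114.

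In the direction taken here, the largest rises were at Rin1, Adgrf5, Bpifb1 and Tgap1. Rin1, a Ras effector that activates Rab5, had signals of 0.67, 1.05, 0.75 and 0.96 on the 6h arrays and -0.29, -0.66 and -0.05 on the 0h arrays, in a window at chromosome 1, 207669127 to 207669522, centred at -2176.5 bp from the listed start, where a minus means upstream (coordinates here and for other windows are those of the files, whose build is not given in the sources used here). The groups were well apart, with a difference of 1.19 (SE 0.20, limma adjusted p = 0.000837). Adgrf5, an adhesion G protein-coupled receptor, had 0.66, 0.82, 0.70 and 0.75 at 6h and -0.66, -0.44 and 0.10 at 0h (difference 1.07, SE 0.16, limma adjusted p = 0.000785), in a window centred 266 bp downstream of its start at chromosome 9, 13322949 to 13323349. Here the 6h arrays lay close together and the 0h arrays were spread. Mc4r, the melanocortin receptor of hypothalamic appetite control, had 0.54, 1.40, 1.12 and 1.27 at 6h and 0.01, -0.20 and 0.35 at 0h (difference 1.03, SE 0.22, limma adjusted p = 0.00245). Its highest 0h array, replicate 3, stayed below its lowest 6h array, replicate 1. The others among the 12 largest rises were Bpifb1, which encodes a secreted airway protein (1.05), Tgap1 (1.03), the shared promoter of Cfap119 and Rnf40 (1.03), the olfactory receptor genes Or9k2 (1.01) and Or2a14 (0.99), Adam4l1 (0.97), the neuronal protocadherins Pcdha6 to Pcdha9 (0.97), the amino acid transporter gene Slc6a18 (0.96) and Svs3a, of the seminal vesicle (0.95). In the deposited direction, with windows chosen anew, Adgrf5 (-0.22), Bpifb1 (-0.0538), Tgap1 (-0.00940) and the promoter of Cfap119 and Rnf40 (-0.0335) turned below 0.

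**Figure D1:**
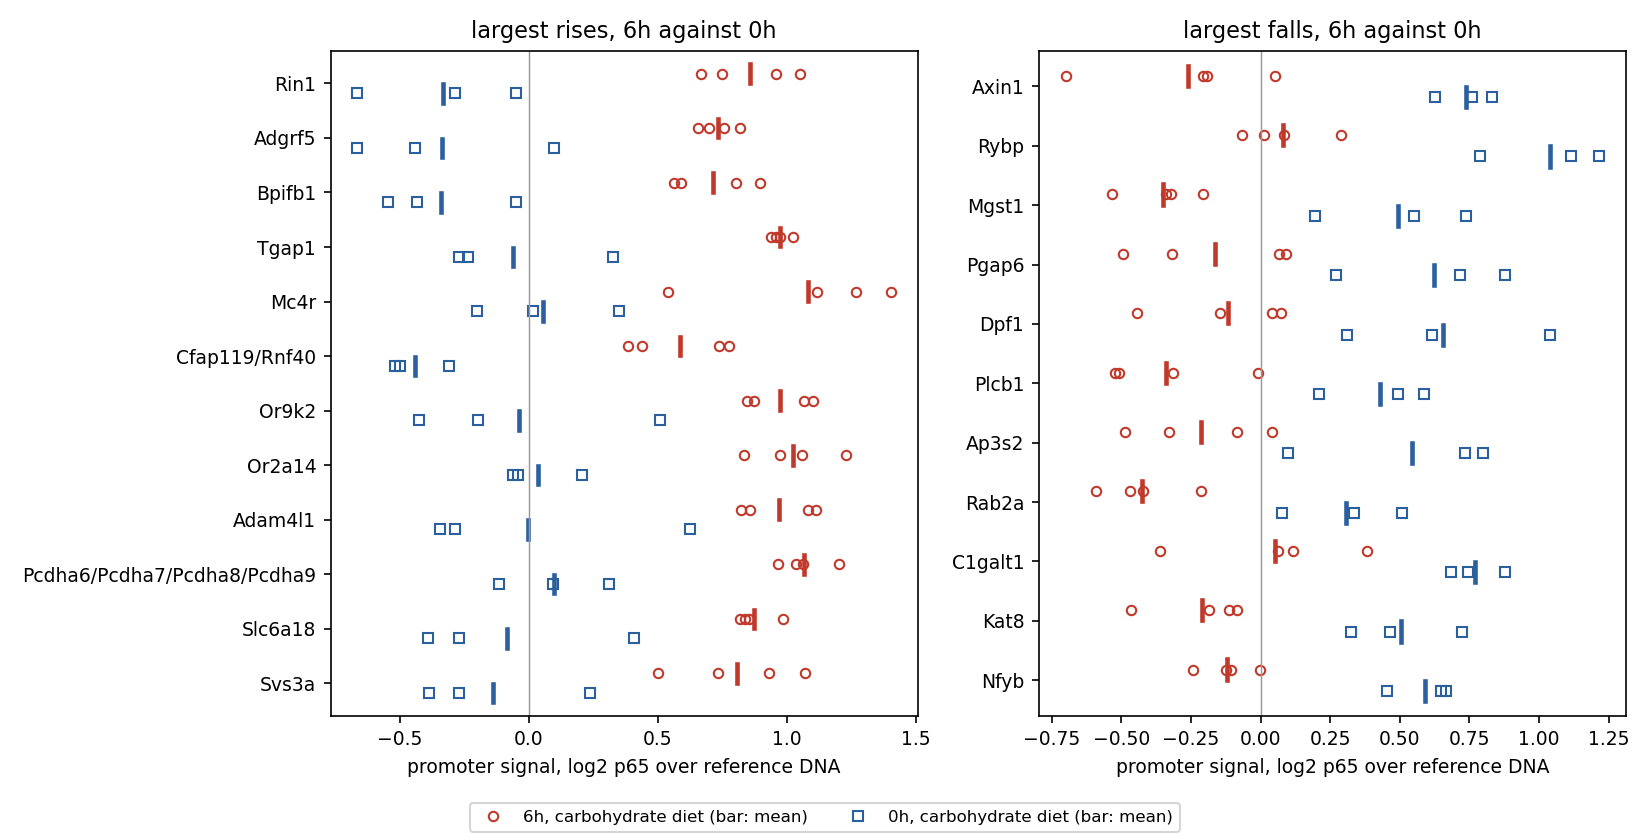
Promoter signal (x axis, log2 p65 over reference DNA) on each 6h array (circles, 4) and each 0h array (squares, 3) at the 12 largest rises (left) and 11 of the 12 largest falls (right), with vertical bars at group means. In both panels no promoter has overlapping groups, because that was part of the choice, and 0h replicate 3 is the highest 0h array at most of the rises, as at Or9k2 with 0.51.

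In the direction taken here, the largest falls were at Axin1 and Rybp. Axin1, the scaffold of the complex that marks beta-catenin for destruction, had -0.70, -0.21, -0.19 and 0.05 at 6h and 0.63, 0.83 and 0.76 at 0h, in a window 523 bp downstream of the listed start at chromosome 10, 15409696 to 15410096. The difference was -1.001 (SE 0.23, limma adjusted p = 0.00372). Signal was thus high on all 0h arrays and near or below the array median on all 6h arrays, and the 1h arrays averaged 0.84. With run as a term the Axin1 difference was -0.01. Rybp, a subunit of variant Polycomb repressive complex 1, had 0.29, -0.07, 0.01 and 0.08 at 6h and 0.79, 1.22 and 1.11 at 0h (difference -0.96, SE 0.17, limma adjusted p = 0.00113). The authors called a peak at Rybp on all 3 arrays of 0h and on none of 6h, and its mean signal at 1h was -0.12. Mgst1, a microsomal glutathione transferase, had -0.53, -0.34, -0.32 and -0.21 at 6h and 0.55, 0.74 and 0.20 at 0h (difference -0.85, SE 0.19, limma adjusted p = 0.00318). Pgap6 (-0.79), whose window lies on the same stretch of chromosome 10 as that of Axin1, fell as well. Further large falls were at Dpf1, a neuronal subunit of the BAF chromatin remodelling complex (-0.77), the phospholipase gene Plcb1 (-0.77), the adaptor subunit gene Ap3s2 (-0.76), the secretory GTPase gene Rab2a (-0.73), C1galt1 of O-glycan synthesis (-0.72), the histone H4 acetyltransferase gene Kat8 (-0.72) and Nfyb, a subunit of the CCAAT-binding factor (-0.71). In the deposited direction of the ratio, with windows chosen anew, the difference was above 0 at all 11 of these falls, from 0.0976 at Pgap6 to 0.43 at Ap3s2, with 0.13 at Axin1 and 0.30 at Rybp.

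**Figure D2:**
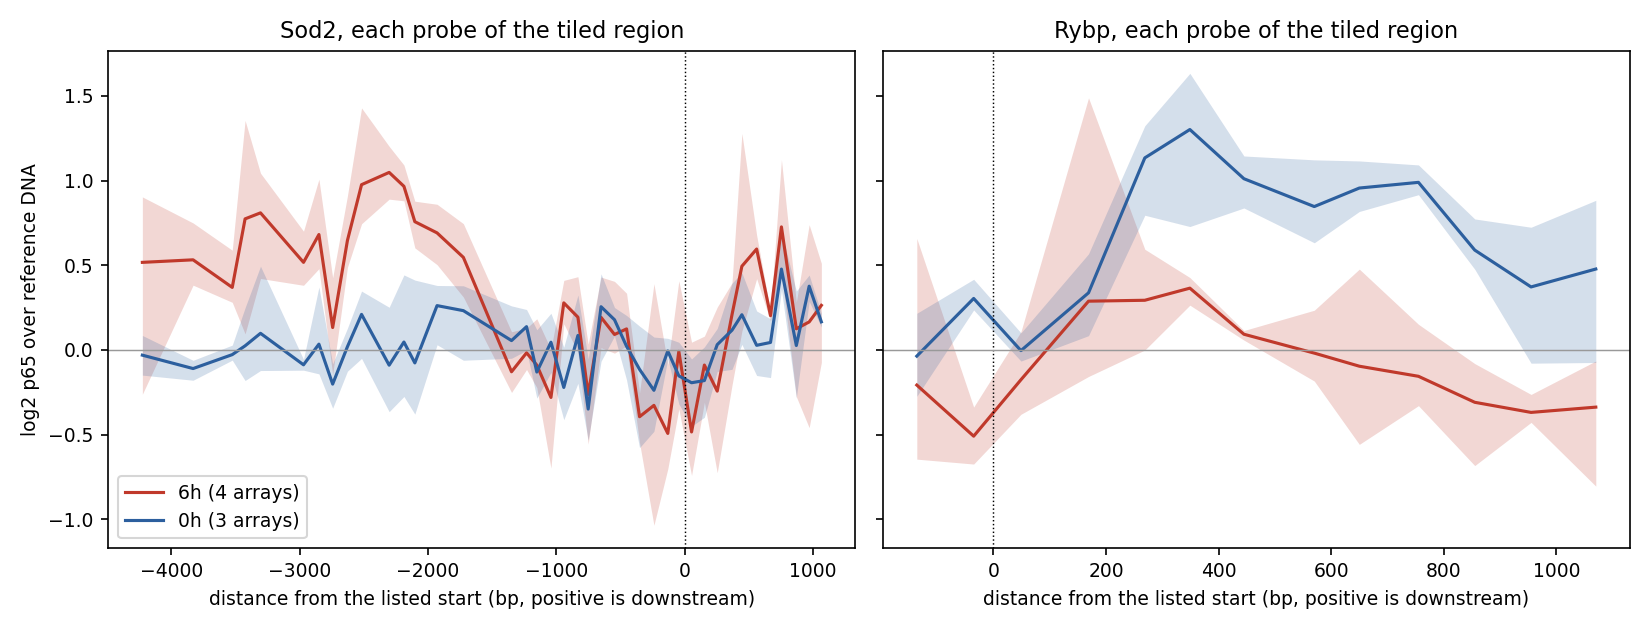
Signal of each probe (y axis, log2) by its distance from the listed start (x axis, bp, positive downstream) at Sod2 (40 probes) and Rybp (13 probes); lines are means of 4 arrays of 6h and 3 of 0h, and bands run from the lowest to the highest array. At Sod2 the 6h mean lies above the 0h mean at the probes farthest upstream and peaks at 1.05 at -2302 bp, with no such order nearer the start, and at Rybp the 0h arrays peak at 1.301 at 349 bp downstream where the 6h arrays average 0.36.

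At Sod2, 12 of 40 probes had all 6h arrays above all 0h arrays, and the highest probe, at -2302 bp, averaged 1.05 at 6h and -0.09 at 0h. All but 1 of these 12 probes lay upstream of the start. Nearer the start the order was mixed, and at 1 probe, at -132 bp, all 6h arrays lay below all 0h arrays (mean -0.49 at 6h and -0.0064 at 0h). At Rybp, 9 of the 13 probes had all 6h arrays below all 0h arrays, and the highest averaged 0.36 at 6h and 1.301 at 0h.

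Known NF-kB genes rose at 6h about as often as other promoters did. Of 87 promoters in 4 lists of NF-kB components and targets, 13 rose (14.9%, against 18.7% of all promoters) and 1 fell, with a median difference of 0.12 beside 0.15 over all promoters. After quantile normalization 7 rose and 7 fell, beside 10.3% higher and 9.78% lower over all promoters. By role, 1 of 12 promoters of subunits and inhibitors rose (median 0.01), 2 of 21 of upstream receptors and kinases (0.08), 6 of 26 of chemokine, cytokine and adhesion targets (0.18) and 4 of 28 of survival and stress targets, where 1 also fell (0.08).

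To show what a kB site looks like in members with and without a called change, 250 bases upstream of the RefSeq start (GRCr8) are given for Ccl7 and Cd86, which rose, and for Nfkbia and Il6, which did not pass, with capitals for each match to the NF-kB consensus on either strand. They lie at chr10:67513845-67514094 (plus strand), chr11:77669031-77669280 (plus), chr6:78597073-78597322 (minus) and chr4:5894576-5894825 (minus). These positions belong to another assembly than the array windows and were not joined to them.
Ccl7: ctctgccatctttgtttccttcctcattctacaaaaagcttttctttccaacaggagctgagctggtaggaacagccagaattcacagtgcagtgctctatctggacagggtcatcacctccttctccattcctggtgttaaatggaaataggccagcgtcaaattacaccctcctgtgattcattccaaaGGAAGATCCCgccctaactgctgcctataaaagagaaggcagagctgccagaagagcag
Cd86: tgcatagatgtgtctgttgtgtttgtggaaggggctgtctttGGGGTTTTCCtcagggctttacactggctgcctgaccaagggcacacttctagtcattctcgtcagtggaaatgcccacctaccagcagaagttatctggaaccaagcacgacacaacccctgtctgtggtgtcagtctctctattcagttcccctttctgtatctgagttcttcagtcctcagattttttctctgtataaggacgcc
Nfkbia: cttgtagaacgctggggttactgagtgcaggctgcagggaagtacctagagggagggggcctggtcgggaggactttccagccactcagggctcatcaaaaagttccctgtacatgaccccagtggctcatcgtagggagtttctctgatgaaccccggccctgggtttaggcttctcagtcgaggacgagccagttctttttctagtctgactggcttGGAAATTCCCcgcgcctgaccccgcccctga
Il6: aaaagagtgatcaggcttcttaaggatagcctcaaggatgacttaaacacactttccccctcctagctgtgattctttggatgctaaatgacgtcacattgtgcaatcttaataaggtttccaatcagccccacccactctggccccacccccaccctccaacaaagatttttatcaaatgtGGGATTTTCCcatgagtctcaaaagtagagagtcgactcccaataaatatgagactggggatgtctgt
Each of the 4 holds 1 match, whose first base lies at -59 (Ccl7, on the reverse strand), -208 (Cd86), -31 (Nfkbia, reverse) and -68 (Il6) from the start. Over the RefSeq promoters (250 bases before and 50 after the start) that could be matched, the consensus occurred in 8.38% of 9629 promoters, in 39.6% of 53 promoters of the NF-kB lists, in 6.63% of 1976 that rose and in 9.95% of 191 that fell. It occurred in 1.77% of 958 olfactory receptor promoters, and in 8.35% of the 1461 that rose outside that family, near the share of all promoters. A match is a description of letters in this stretch and not a bound site. Most signal windows lay elsewhere. Their centres were within 500 bp of the listed start at 28.0% of rises, 18.8% of falls and 18.5% of all promoters with a listed start.

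Among subunits, inhibitors and receptors, Cyld, a deubiquitinase that restrains NF-kB signalling, rose. It had 0.64, 0.60, 0.73 and 0.70 at 6h and 0.03, -0.17 and 0.41 at 0h (difference 0.58, SE 0.14, limma adjusted p = 0.00624), with a peak on 4 of 4 arrays of 6h and 1 of 3 of 0h. Nfkbia, which encodes IkB alpha and is the classical feedback target, had 0.34, 0.61, 0.52 and 0.61 at 6h and 0.01, 0.25 and 0.75 at 0h (difference 0.18, SE 0.18, limma adjusted p = 0.502). Its groups overlapped through 0h replicate 3. The interleukin 1 receptor accessory gene Il1rap rose by 0.47 and the endotoxin co-receptor gene Cd14 by 0.32 (limma adjusted p = 0.0144 and 0.0399).

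Among chemokine, cytokine and adhesion targets, the neighbouring chemokine genes Ccl7 and Ccl2, which draw monocytes, both rose. Ccl7 had 0.48, 0.38, 0.36 and 0.42 at 6h and -0.07, -0.18 and 0.01 at 0h (difference 0.49, SE 0.11, limma adjusted p = 0.00393), in a window centred at -217 bp. Ccl2 had 0.32, 0.29, 0.28 and 0.48 at 6h and -0.17, -0.38 and 0.22 at 0h (difference 0.45, SE 0.13, limma adjusted p = 0.0149), in a window centred at -670 bp, at chromosome 10, 70255382 to 70255802. The 6h arrays were all above the 0h arrays at both genes, and closest to 0h replicate 3 at Ccl2. The costimulatory gene Cd86 (0.44), the interleukin 12 subunit gene Il12b (0.40), the endothelial selectin gene Sele (0.35) and Il15 (0.31) rose as well, with overlapping groups at Il12b and Il15. Il6, a cytokine that primes hepatocytes for regeneration, had 0.41, 0.22, 0.46 and 0.35 at 6h and 0.54, 0.45 and 0.44 at 0h (difference -0.12, SE 0.12, limma adjusted p = 0.520). The shared promoter of Lta and Tnf had 0.03, 0.01, -0.12 and 0.19 at 6h and -0.01, -0.09 and -0.17 at 0h (difference 0.12, SE 0.13, limma adjusted p = 0.533). Neither passed, and the Lta and Tnf promoter was near the array median in both groups. No named promoter was matched to Tnfaip3 or Icam1.

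Among survival and stress targets, Sod2, the mitochondrial superoxide dismutase and a strong NF-kB target, rose most. It had 0.91, 0.83, 0.94 and 1.07 at 6h and -0.06, -0.24 and 0.36 at 0h (difference 0.91, SE 0.15, limma adjusted p = 0.000785), and the authors called a peak on all 4 arrays of 6h and none of 0h. The lowest 6h array (0.83) stood well above the highest 0h array (0.36), and the Sod2 difference with run as a term was 0.74 (short of the threshold there). Cflar, an inhibitor of caspase 8, rose by 0.56, the urokinase gene Plau by 0.51 and the quinone reductase gene Nqo1 by 0.37. Xiap, an inhibitor of effector caspases, had -0.17, -0.21, 0.02 and -0.12 at 6h and 0.29, 0.39 and 0.36 at 0h (difference -0.47, SE 0.10, limma adjusted p = 0.00240). It was the only fall in the 4 lists in the unscaled fit. With run as a term the values for Cflar, Cd86 and Nqo1 turned to -0.13, -0.18 and -0.20.

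**Figure D3:**
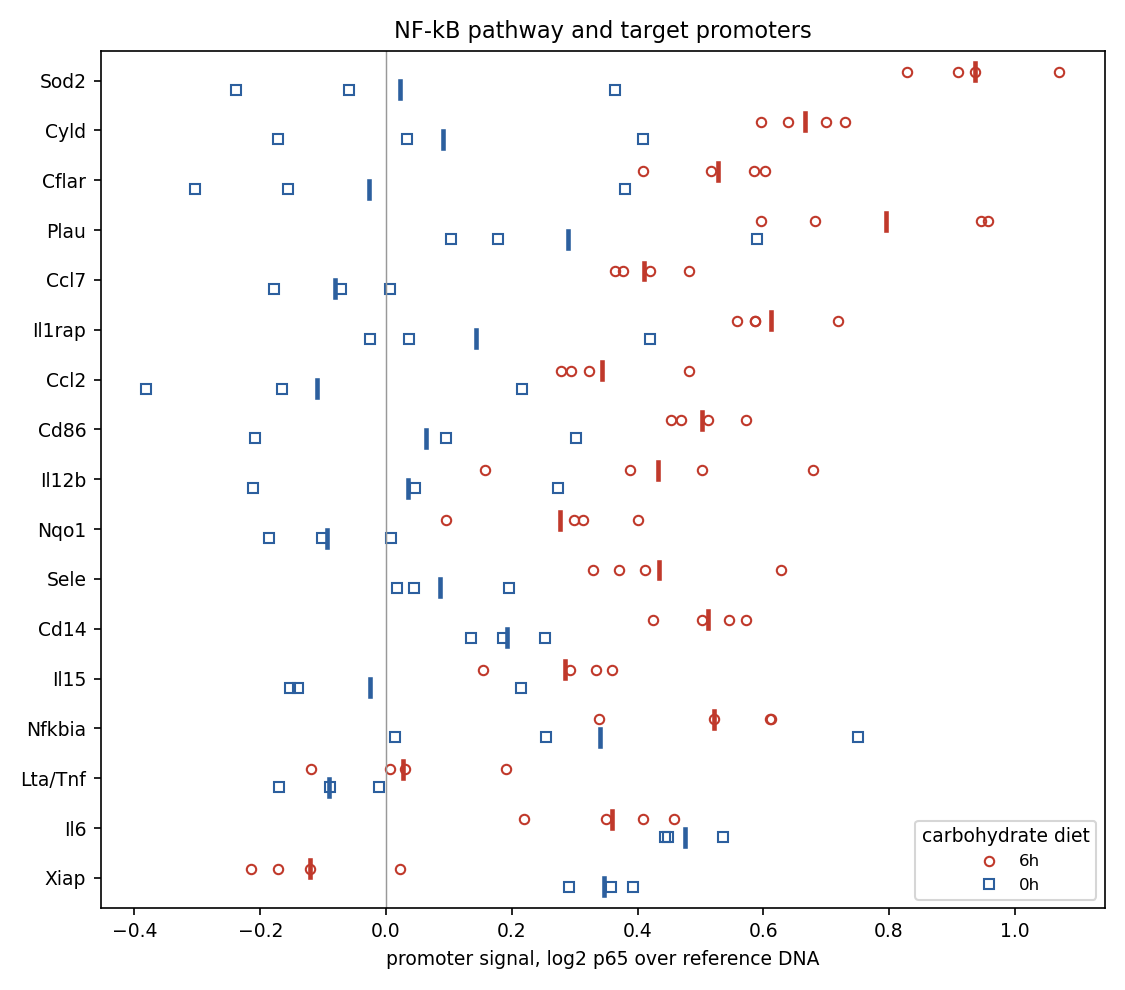
Promoter signal (x axis, log2 p65 over reference DNA) on each 6h array (circles) and 0h array (squares) at the 14 called promoters of the NF-kB lists and at Nfkbia, Lta/Tnf and Il6, ordered by the difference of the means (bars). From Sod2 (0.91) to Il15 (0.31) the 6h mean is higher by a called amount, and Xiap at the bottom is the called fall.

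Counts in the other pathways that regenerating liver engages are to be read beside all promoters, of which 18.7% rose and 1.99% fell. Of 36 immediate early promoters 3 rose and 1 fell: Egr3 (0.60), Klf2 (0.43) and Atf3 (0.43) rose, and Gadd45a, a growth arrest gene, fell by 0.54. In the interleukin 6 and JAK-STAT list 5 of 30 rose, among them the interleukin 10 receptor subunit genes Il10rb (0.70) and Il10ra (0.42), the oncostatin M receptor gene Osmr (0.44) and Pias3 (0.44), which restrains STAT3. In windows chosen on the other 13 arrays Pias3 gave -0.96 and Gadd45a 0.0670. Of 36 acute phase and plasma protein promoters 4 rose: Serpina3c (0.61), F10 (0.60), the promoter shared by Itih1 and Nek4 (0.57) and Serpina1 (0.40), with overlapping groups at Serpina3c and Serpina1. In windows chosen on the other arrays F10 gave -0.23 and Serpina3c -0.0686. Among growth factors and receptors 5 of 38 rose, with the angiopoietin receptor gene Tek (0.60), the hepatocyte growth factor receptor gene Met (0.58), Btc (0.48) and Angpt2 (0.44), and 1 fell. Met, the receptor of the main hepatocyte mitogen, had 0.43, 0.90, 0.78 and 0.57 at 6h and 0.03, -0.09 and 0.33 at 0h (SE 0.13, limma adjusted p = 0.00380). In the Wnt list 2 of 32 rose, the secreted Wnt inhibitor gene Notum (0.56) and Tnks (0.43), whose product marks axin for degradation and whose groups overlapped and which gave -0.000900 in a window chosen on the other arrays, and Axin1 was the fall. Of 32 promoters of Polycomb and chromatin regulators 6 rose, including the remodelling subunit gene Arid1a (0.54), the acetyltransferase gene Kat2b (0.48), the methyltransferase gene Ezh2 (0.44) and Pcgf3 (0.38), and Rybp and Dpf1 fell.

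For the cell cycle, stress defence and metabolism the same shares over all promoters apply (18.7% and 1.99%). In the G1 to S and replication list 5 of 35 rose and 2 fell. The rises named are the promoter shared by Ap4m1 and the helicase subunit gene Mcm7 (0.62), the cyclin gene Ccne1 (0.50), the inhibitor gene Cdkn1c (0.50) and Rrm2 (0.45). The other ribonucleotide reductase subunit gene, Rrm1 (-0.41, groups overlapping), and the inhibitor gene Cdkn2c (-0.37) fell. Of 39 oxidative stress defence promoters 8 rose, among them Sod2, Gstm2 (0.56), Gpx2 (0.54) and Gpx3 (0.53), and Mgst1 fell. In the alcohol and xenobiotic list 4 of 35 fell and 3 rose. The falls were Ahr (-0.52) and Arnt (-0.43), the partners of the dioxin receptor complex, Ephx1 (-0.39) and the sulfotransferase gene Sult2a1 (-0.39), and the rises were Aldh1b1 (0.59), Cyp1a1 (0.48), a target of that receptor, and Cyp2e1 (0.39), the ethanol-oxidizing cytochrome, both cytochrome genes with overlapping groups. Ahr had 0.21, 0.32, 0.11 and 0.06 at 6h and 0.55, 0.64 and 0.87 at 0h (SE 0.14, limma adjusted p = 0.0122), so its groups did not overlap. In a window chosen on the other 13 arrays the Ahr difference was 0.14. The fall was thus tied to the window used, 717 bp downstream of the listed start. Of 34 glucose, amino acid and urea promoters none rose and 1 fell, Cth of cysteine synthesis (-0.46), and of 40 lipid and sterol promoters 3 rose, Acacb (0.58), Dgat1 (0.43) and Cpt2 (0.33, or -0.11 in a window chosen on the other arrays). Among 31 liver transcription factor promoters Onecut1 (0.33) rose. These counts depended on the scaling. After quantile normalization 1 of the 40 lipid and sterol promoters was higher and 11 were lower. Of the 31 liver transcription factor promoters 0 were then higher and 6 lower, beside 10.3% higher and 9.78% lower over all promoters. In the apoptosis list of 27, Cflar and the promoter shared by Apaf1 and Ikbip (0.43) rose and Xiap fell. The TGF-beta and matrix list had 7 rises and 2 falls among 34. Its rises included Tnr (0.80), Col4a1 (0.59), Tgfb2 (0.52) and Smad1 (0.50), and the type I receptor gene Tgfbr1 (-0.59) and the signal transducer gene Smad2 (-0.46) fell. The median difference of these lists lay between -0.07 for immediate early genes and 0.20 for acute phase proteins, beside 0.15 over all promoters.

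Among genes that mark the cell types of liver, and genes of tissues other than liver, most promoters did not pass, and 18.7% of all promoters rose. ChIP measures no expression, so these promoters do not count cells. Of 11 hepatocyte marker promoters 2 rose, Serpina1 and Cyp2e1, with a median signal of 0.19 to 0.41 on the 6h arrays and 0.04 to 0.27 on the 0h arrays. Of 7 Kupffer cell and macrophage promoters 3 rose: the shared promoter of the complement genes C1qa and C1qc (0.73), the scavenger receptor gene Cd163 (0.51) and Csf1r (0.41, groups overlapping, or -0.28 in a window chosen on the other arrays). Their list had a median signal of 0.24 to 0.48 on the 6h arrays and -0.04 to 0.17 on the 0h arrays. Among 9 stellate cell promoters Col1a1 (0.48, or -0.12 in a window chosen on the other arrays), Reln (0.46) and Gfap (0.40) rose, among 6 endothelial promoters Tek and Tie1 (0.45), among 6 cholangiocyte promoters Spp1 (0.34), among 12 lymphocyte promoters Cd8a (0.82), Ms4a1 (0.71) and Cd79b (0.34), and among 9 neutrophil promoters Ngp (0.70) and S100a8 (0.55). None of these markers fell, where only 1.99% of all promoters fell. In the comparison lists, 7 of 43 neuronal promoters rose, including Mc4r and Htr2a (0.68), and 5 of 29 testis promoters, including Tnp1 (0.68), Dazl (0.60), Spo11 (0.60) and the promoter shared by Gapdhs and Sbsn (0.57). The neuronal share, 16.3%, and the testis share, 17.2%, were near the 18.7% of all promoters.

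Olfactory receptor genes, a large family of odorant receptors of the nasal epithelium that lie in clusters, had more called rises than any other family examined in the direction taken here. Of 1164 olfactory receptor promoters 604 rose (51.9%) and none fell, with a median difference of 0.37 and a range of -0.26 to 1.01. The median signal of the family was 0.48, 0.43, 0.49 and 0.55 on the 6h arrays and 0.06, -0.03 and 0.34 on the 0h arrays, against 0.23, 0.29, 0.31 and 0.36 at 6h and 0.12, 0.08 and 0.24 at 0h over all promoters. The family thus lay above the median promoter on all 4 arrays of 6h and on 0h replicate 3, and below it on the other 0h arrays. Or9k2 had 1.10, 0.87, 0.85 and 1.07 at 6h and -0.42, -0.20 and 0.51 at 0h (difference 1.01, SE 0.18, limma adjusted p = 0.00107), and Or2a14 had 1.23, 0.83, 1.06 and 0.97 at 6h and -0.04, -0.06 and 0.21 at 0h (difference 0.99, SE 0.16, limma adjusted p = 0.000785). Quantile normalization left 389 of these promoters higher and 5 lower, with a median of 0.24, beside 1498 and 1422 of all promoters. With run as a term 6 were higher, with a median of 0.52, beside 21 of all promoters. Over the mean of the whole tiled region 100 were higher, beside 609 of all promoters. In the deposited direction 20 of the 1164 were higher, against 747 of all 14540 promoters. Without 0h replicate 2 the count was 112 (467 of all promoters), and without 0h replicate 3 it was 792 (3825 of all promoters). Leaving the family out, 2117 of 13376 promoters rose (15.8%) and 290 fell. Members of the family are close in sequence, so probes of different members may share DNA and were not treated as independent.

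**Figure D4:**
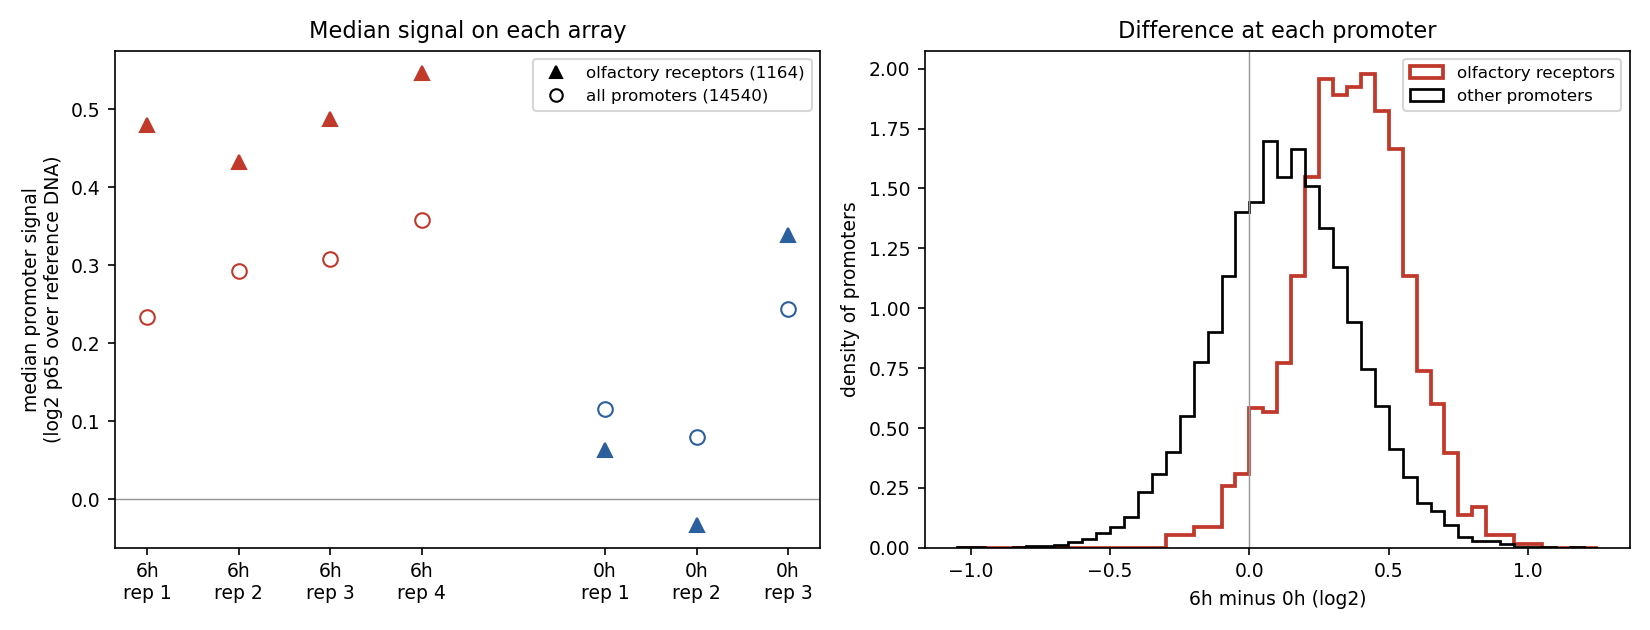
Left, median promoter signal (y axis, log2) of 1164 olfactory receptor promoters (triangles) and of all 14540 promoters (circles) on each 6h and 0h array; right, density of the 6h minus 0h difference (x axis, log2) for olfactory receptor and other promoters. The family reaches 0.43 to 0.55 on the 6h arrays and 0.34 on 0h replicate 3, and its differences centre at 0.37.

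The counts of other families stand beside 18.7% higher and 1.99% lower over all promoters, and differences between families were not tested. Vomeronasal and taste receptors, chemosensory receptors like the odorant receptors, had 63 of 181 promoters higher and 0 lower by limma (median 0.29), with 28 higher after quantile normalization. Defensins had 11 of 42 higher (median 0.22), keratins 14 of 57 (0.28) and potassium channels 18 of 73 (0.17), none of them with a fall in the unscaled fit. Zinc finger genes had 24 of 156 higher (0.08), solute carriers 49 higher (17.1%) and 3 lower (0.14), and cytochromes P450 8 of 55 higher and 1 lower (0.12). Promoters selected by ribosomal protein symbols, which also take in ribosomal kinase genes, had 19 of 143 higher and 1 lower (0.16). Proteasome subunits had 1 of 36 higher (0.04). The respiratory chain and ATP synthase family had 6 of 75 higher and 6 lower (0.03), with Ndufa10 (0.63) and Cox6b2 (0.53) as the largest rises and Cox7c (-0.49) and Cox5a (-0.41) among the largest falls. These 4 were chosen after their values were seen. After quantile normalization the last family had 3 higher and 18 lower, where all promoters had 10.3% higher and 9.78% lower.

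The called promoters differed in base composition, a property that the fit did not use. Among 9629 promoters with 1 gene and a RefSeq sequence, the median GC content was 50.3% for those that rose, 63.0% for those that fell, 58.7% for those not called and 35.3% for olfactory receptors. To show the contrast, 250 bases upstream of the RefSeq start (GRCr8) follow for Or9k2 and Or2a14, which rose, and for Ahr and Dpf1, which fell, with capitals for each CG dinucleotide. They lie at chr7:7520020-7520269 (minus strand), chr4:72942103-72942352 (plus), chr6:57998902-57999151 (minus) and chr1:93733592-93733841 (plus).
Or9k2: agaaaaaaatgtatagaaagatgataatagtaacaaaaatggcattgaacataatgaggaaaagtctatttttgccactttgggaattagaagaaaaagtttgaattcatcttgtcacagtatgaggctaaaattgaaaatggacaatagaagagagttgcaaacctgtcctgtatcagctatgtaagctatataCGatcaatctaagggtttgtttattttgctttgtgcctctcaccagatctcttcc
Or2a14: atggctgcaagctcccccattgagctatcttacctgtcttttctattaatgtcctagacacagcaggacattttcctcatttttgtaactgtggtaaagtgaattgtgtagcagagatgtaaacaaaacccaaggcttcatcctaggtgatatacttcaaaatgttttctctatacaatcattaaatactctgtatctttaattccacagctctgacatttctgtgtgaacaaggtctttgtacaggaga
Ahr: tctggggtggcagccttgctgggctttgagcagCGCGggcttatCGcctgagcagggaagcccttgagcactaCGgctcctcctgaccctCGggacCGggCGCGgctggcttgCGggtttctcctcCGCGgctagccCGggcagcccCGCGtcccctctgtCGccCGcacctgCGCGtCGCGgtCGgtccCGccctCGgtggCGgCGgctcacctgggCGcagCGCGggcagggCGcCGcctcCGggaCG
Dpf1: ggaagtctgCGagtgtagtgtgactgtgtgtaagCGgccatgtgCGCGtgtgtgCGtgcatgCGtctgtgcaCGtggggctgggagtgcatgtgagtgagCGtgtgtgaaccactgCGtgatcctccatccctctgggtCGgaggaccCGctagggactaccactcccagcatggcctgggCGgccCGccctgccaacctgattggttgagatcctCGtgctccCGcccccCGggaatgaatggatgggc
These stretches hold 1 CG dinucleotide and 33.2% GC at Or9k2, 0 and 37.6% at Or2a14, 32 and 75.2% at Ahr and 16 and 63.2% at Dpf1. They are examples, and their contrast is wider than that of the groups. Over the RefSeq promoters the quartiles of GC content were 40% and 59.3% among rises, and 56.7% and 70.2% among falls. Both rises shown are olfactory receptors, and the signal window of Ahr lies downstream of its listed start. From the lowest to the highest quintile of GC content, the share that rose was 38.8%, 24.4%, 16.4%, 11.4% and 11.2%, and the share that fell was 0.56%, 1.38%, 1.91%, 2.45% and 3.68%. In the lowest quintile 26.2% of the promoters other than olfactory receptors rose, so the order held without that family. It also held after quantile normalization, except between the last pair (23.5%, 14.7%, 8.56%, 5.38% and 5.71% higher). Across the 9629 promoters, signal and GC content correlated at r of -0.29, -0.14, -0.26 and -0.23 on the 6h arrays and 0.17, 0.26 and -0.08 on the 0h arrays, given as a description of promoters that share their array. On the ethanol arrays of the same times r was -0.31 to -0.19 at 6h and -0.11 to 0.18 at 0h. On the carbohydrate 1h arrays r was 0.19, 0.22 and 0.36, where replicates 2 and 3 share the run of 6h replicates 2 to 4. GC content and motifs were read in the RefSeq promoter and not in the signal window. The part of base composition in the called differences was not tested. The TATA motif TATAAA (either strand) occurred in 19.5% of the promoters that rose, 5.24% of those that fell and 13.3% of all, and GGGCGG (either strand) in 30.5%, 68.6% and 48.0%. Leaving out olfactory receptors, 12.9% of the promoters that rose held TATAAA and 40.7% held GGGCGG.

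**Figure D5:**
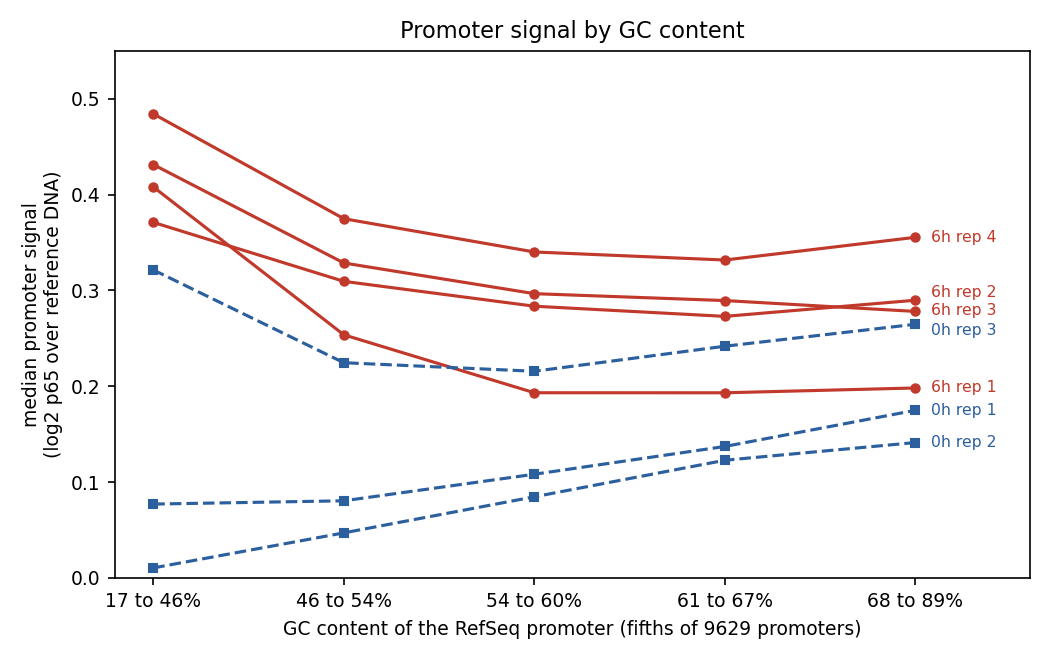
Median promoter signal (y axis, log2) on each 6h array (circles, solid) and 0h array (squares, dashed) in quintiles of 9629 promoters by GC content of the RefSeq promoter (x axis, percent). On the 6h arrays and on 0h replicate 3 the median is highest in the lowest quintile (0.37 to 0.48 at 6h, 0.32 on that 0h array), and on 0h replicates 1 and 2 it is lowest there (0.08 and 0.01).

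The authors' own peak lists gave a second view of the same arrays. They held 3722, 6704, 6121 and 6591 peaks on the 6h arrays and 2874, 4069 and 6077 on the 0h arrays, a difference of means of 1444.5 that did not pass (exact permutation test, two-sided, p = 0.229, where 0.0571 is the smallest p this design allows). A gene was counted as bound with a peak on at least 2 arrays of a group. By that rule 5688 of 14356 genes (39.6%) were bound at 6h and 2960 (20.6%) at 0h, and 1438 in both, which is 25.3% of the 6h genes and 48.6% of the 0h genes. The 6h group had 1 array more, and any 3 of its arrays gave 4378 to 5211 genes. Of the NF-kB chemokine, cytokine and adhesion genes 12 of 27 were bound at 6h (44.4%) and 3 at 0h (11.1%), with Ccl2, Ccl5, Ccl7, Cxcl9, Il1a, Il1b and Vcam1 among those bound at 6h and not at 0h. Bound at 0h and not at 6h were Ccl20 and Il6. Of the survival and stress genes 24.1% were bound at 6h and 20.7% at 0h, and of the upstream receptor and kinase genes 23.8% and 14.3%, beside 39.6% and 20.6% of all genes. Of the genes for subunits and inhibitors 2 of 11 were bound at 6h (Nfkbia and Cyld) and 3 at 0h (Nfkbib, Nfkbiz and Otud7b).

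Peaks on all 4 arrays of 6h and none of 0h were listed for 435 of 14356 genes, and on all 3 arrays of 0h and none of 6h for 229. Olfactory receptors made up 97 of the 435 (22.3%), beside 1187 of all 14356 genes. By the authors' peak score, averaged over the 6h arrays, the first set was led by Mc4r (1.01), Spetex2c (0.95), Tgap1 (0.94), Snx3 (0.89), Or2a14 (0.87), the basement membrane gene Nid2 (0.87), the mast cell protease genes Mcpt8l2, Mcpt9 and Mcpt8 (0.87 each, with peaks shared by Mcpt8l2 and Mcpt9) and Trmt10b (0.87). All 10 of these were also higher in the limma fit, Snx3 and Nid2 by 0.64 and 0.82. They were chosen on peaks of the same arrays, so the count leans the chosen way and is a description. The second set was led by Rybp (0.95) and the bicarbonate transporter gene Slc4a4 (0.73), then Pard6g, Zc3h14, Purb, Pftk1, Ppm1a, Zbtb18 and the pair Abhd17b and C1h9orf85 (0.67 to 0.68 each). Of these Zc3h14 (limma adjusted p = 0.216) and the promoter of Abhd17b and C1h9orf85 (0.0526) did not pass in the fit of signal. Slc4a4, Purb and Rybp fell by 0.64, 0.68 and 0.96, and Slc4a4 and Purb also had a peak on all 3 arrays of 1h, whereas Rybp had none there.

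Olfactory receptor genes with a peak numbered 784, 734, 819 and 891 on the 6h arrays and 171, 115 and 681 on the 0h arrays (mean 807 ± 66.0 and 322 ± 312, SD, n = 4 and 3, exact permutation test p = 0.0571, the smallest this design allows). All 6h arrays lay above all 0h arrays, with 0h replicate 3 close below. Of 1187 olfactory receptor genes 941 were bound at 6h (79.3%, beside 39.6% of all genes) and 171 at 0h (14.4%, beside 20.6%). At 1h 85 were bound (7.16%, beside 28.8%). In ethanol-fed rats 81.4% were bound at 6h and 20.0% at 0h, given here without the share of all genes.

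Arrays outside the calls bear on the direction of the differences. The animal that gave both times, with 6h replicate 2 and 0h replicate 3, can be set against calls made without it. Without both arrays 3293 promoters were higher and 215 lower by limma, and the difference within that animal was positive at 2607 of the 3293 (79.2%, against 56.5% of all promoters) with a median of 0.19, and negative at 194 of the 215 (90.2%, against 43.5%) with a median of -0.36. These 2 arrays come from different runs and lobes, as the others do.

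The ethanol-fed rats give the same contrast on other arrays, and 1 of these animals gave both 0h replicate 3 and 6h replicate 1. Their 6h arrays lie in the run of carbohydrate 6h replicates 2 to 4, and of their 0h arrays replicates 1 and 3 lie in the run of the carbohydrate 0h arrays and replicate 2 in another. There 53 promoters were higher at 6h and 92 lower (0.365% and 0.633%). Of these 40 and 28 were among the calls of the carbohydrate diet, which is 75.5% and 30.4% of the ethanol calls and 1.47% and 9.66% of the carbohydrate calls. The ethanol difference was positive at 85.3% of the promoters that rose in carbohydrate-fed rats, against 46.8% of all, and negative at 96.6% of those that fell, against 53.2% of all. Across promoters the differences of the diets correlated at r = 0.60, as a description, since lobes and most runs are shared. Axin1 differed by -1.26 in ethanol-fed rats, Sod2 by 0.42, Rin1 by 0.08 and Ccl2 by 0.24. The difference between the diets in 6h minus 0h was called at 0 of 14540 promoters by limma, with a smallest adjusted p of 0.290 and 1965 promoters (13.5%) at an unadjusted p under 0.05, so no change is called particular to the carbohydrate diet. The median of that difference was 0.17.

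The 1h arrays of the carbohydrate diet are compared with the same 0h arrays, and 1 animal gave both 0h replicate 2 and 1h replicate 1. Over the 2721 promoters that rose, the median difference of 1h from 0h was 0.19, and over the 290 that fell it was -0.21, beside 0.074 over all promoters. The promoters were chosen on those 0h arrays, so these medians lean the chosen way and are a description. Against 0h, 1236 promoters were higher (8.5%) and 344 lower (2.37%) at 1h, and against 1h, 2476 were higher (17%) and 1006 lower (6.92%) at 6h, where the comparisons share arrays and are given side by side. Signal at Rin1 averaged -0.33, 1.00 and 0.86 at 0h, 1h and 6h, and signal at Sod2 0.02, 0.31 and 0.94. At Axin1 it averaged 0.74, 0.84 and -0.26, and at Rybp 1.04, -0.12 and 0.08. Rin1 and Rybp were thus near their 6h level at 1h, while Sod2 and Axin1 were nearer to their 0h level. Within the run that holds 6h replicates 2 to 4 together with 1h replicates 2 and 3, 2712 promoters were higher (18.7%) and 777 lower (5.34%) at 6h than at 1h.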

How the data were processed

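The authors deposited 1 log2 ratio per probe and array (713735 probes), with centring and direction unstated, and a peak list for each array. Per the file headers a peak has a score and an FDR (unit p-value), which reached at most 0.19961 on the 7 arrays. Peak caller and genome build are not given in the sources used here. Per the labels' protocols, chromatin was sonicated and precipitated with a polyclonal p65 antibody.

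Values were multiplied by -1 and centred per array on the median, without loess or quantile normalization. Gaps over 1000 bp between probes delimited 14723 regions. Promoter signal is the mean of the strongest 500 bp window over the 20 arrays, where it held 4 probes or more (14540 promoters). Of 14678 transcript accessions in the peak lists, 13670 matched RefSeq names (GRCr8) and 3476 were renamed, and 1149 promoters carry several genes. Signal was tested with limma 3.58.1 in R 4.3.3 (lmFit, contrasts.fit, eBayes with trend, two-sided) in 1 fit of 6 group means over all 20 arrays, with Benjamini-Hochberg adjustment and a threshold of 0.05, and the fit was tested on simulated data. Exact tests used scipy 1.17.1 under Python 3.11.15. Replicate numbers did not pair the samples.

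Named are the 12 largest rises and falls with non-overlapping groups, called members of the lists (all of the NF-kB lists, up to 4 per direction elsewhere, all of the marker lists), the 10 genes with the highest mean peak score on every array of 1 group and none of the other, and the known targets Nfkbia, Tnfaip3, Icam1, Ccl2, Il6 and Tnf. A few promoters that this rule names are not reported here, though they stay in the fits and counts. The members and lists were chosen with earlier results of these data known. Alternatives covered scaling, quantile normalization, region mean, window, direction, arrays fitted, array weights, run, animal, replicate block, a signal filter, left-out arrays and stricter peak rules. The alternative without both arrays of the shared animal, and the counts of olfactory receptors under each setting, were chosen after seeing the data.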

Additional observations from a re-analysis of the deposited data

Results flagged for a closer look

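Within the 4 arrays of 6h, 113 values were tested by Dixon's ratio. This is the gap between an outer array and its nearest other array, divided by the range of the 4 arrays. The ratio exceeded Dixon's critical value in 4 of the 113, where chance gives about 1 in 20. Signal at Serpina1 was 0.19 on 6h replicate 1, against 0.41 to 0.45 on the other 6h arrays. Signal at Aldh1b1 was 0.67 on 6h replicate 1, against 0.57 to 0.59 on the others. Signal at the promoter of C1qa and C1qc was 0.75 on 6h replicate 4, against 0.55 to 0.57 on the others. The median width of the authors' peaks was 639 bp on 6h replicate 1, against 544 to 555 bp on the others. That array also had the fewest peaks of the 6h arrays (3722) and was the only array of its run.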

How the results depend on the processing

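Higher and lower calls numbered 2721 and 290. They were 609 and 805 by region mean, 2066 and 260 in windows chosen on the other 13 arrays, 747 and 25 in the deposited direction (with windows chosen anew), 3598 and 601 with the 7 arrays alone, 6344 and 918 with array weights, 21 and 38 with run as a term, 2760 and 307 with the animal as a random block, 1944 and 149 among promoters above the median signal, 1498 and 1422 after quantile normalization, 2100 and 800 with equal spread and 3293 and 215 without both arrays of the shared animal. Leaving out each array in turn gave 467 to 3825 higher and 30 to 333 lower. Without 6h replicate 1 there were 2574 and 174, without replicate 2 2009 and 156, and without replicate 4 1708 and 239. Olfactory receptor rises (604) were 389 with quantile normalization, 100 by region mean, 20 in the deposited direction, 972 with array weights, 6 with run as a term and 112 to 792 without single arrays. The replicate block gave 2334 and 326 calls, but same-numbered arrays deviated together at r of 0.10, 0.11 and -0.09, so the numbers do not pair the samples. The diet difference stayed at 0 calls with run as a term, in the deposited direction and over whole regions. The difference in peaks per array was 658.8 with an FDR of at most 0.05 and 711.5 to 2313 without single arrays, and none passed. Genes bound fell to 3578 at 6h and 842 at 0h with a peak on at least 3 arrays, and to 2061 and 703 with an FDR of at most 0.05. Of the 108 named promoters none kept its call with run as a term. Values that changed sign with run as a term were Cfap119/Rnf40 -0.0538, Cd86 -0.18, Cflar -0.13, Nqo1 -0.20, Klf2 -0.18, Pias3 -0.0653, F10 -0.18, Itih1/Nek4 -0.0822, Notum -0.41, Ezh2 -0.0112, Cdkn1c -0.20, Gstm2 -0.22, Gpx3 -0.0454, Dgat1 -0.28, Cyp1a1 -0.28, Onecut1 -0.16, Apaf1/Ikbip -0.17, Dazl -0.15, Spo11 -0.40, Gapdhs/Sbsn -0.0842, Tie1 -0.0504, Ngp -0.0105, Nfkbia -0.17, Il6 0.10, Lta/Tnf -0.25. In the deposited direction they were Adgrf5 -0.22, Bpifb1 -0.0538, Tgap1 -0.00940, Cfap119/Rnf40 -0.0335, Axin1 0.13, Rybp 0.30, Mgst1 0.10, Pgap6 0.0976, Dpf1 0.29, Plcb1 0.25, Ap3s2 0.43, Rab2a 0.18, C1galt1 0.22, Kat8 0.35, Nfyb 0.27, Ccl7 -0.0179, Ccl2 -0.0309, Il12b -0.0359, Il15 -0.15, Xiap 0.13, Gadd45a 0.29, Il10rb -0.31, Serpina1 -0.0278, Met -0.11, Angpt2 -0.0721, Arid1a -0.0725, Rrm1 0.17, Cdkn2c 0.29, Gpx2 -0.11, Cth 0.26, Ahr 0.34, Arnt 0.31, Ephx1 0.48, Sult2a1 0.0932, Tgfb2 -0.0795, Tgfbr1 0.48, Smad2 0.35, Gfap -0.0213, Ngp -0.0576, Il6 0.32. By region mean they were Plau -0.0282, Egr3 -0.0764, Atf3 -0.0139, Osmr -0.0180, Pias3 -0.0803, Itih1/Nek4 -0.0461, Ezh2 -0.13, Pcgf3 -0.0666, Ccne1 -0.0187, Gpx3 -0.0383, Cyp2e1 -0.0379, Onecut1 -0.0923, Apaf1/Ikbip -0.0955, Smad1 -0.00968, Col1a1 -0.0185, Reln -0.0686, Tie1 -0.0726, Nfkbia -0.0401. In windows chosen on the other arrays they were Gadd45a 0.0670, Pias3 -0.96, Serpina3c -0.0686, F10 -0.23, Tnks -0.000900, Cpt2 -0.11, Ahr 0.14, Csf1r -0.28, Col1a1 -0.12. After quantile normalization it was Lta/Tnf -0.00897. The cause of these changes was not tested.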
